A study of Homo sapiens with 4 samples.

Results

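The hypoxia-response genes outside glycolysis comprised 32 protein-coding genes, taken by symbol from a table of 61806 genes. Of these, 3 encode subunits of the hypoxia-inducible factors (HIF), 5 encode proteins that sense oxygen or degrade HIF, and 24 are targets of HIF that do not belong to glycolysis. RNA was measured in JJ012, a human chondrosarcoma line, and in 143B, a human osteosarcoma line, both kept detached from the culture surface. Each line gave an untreated control library and a library from cells given 1 mM melatonin, for 72 h in the labels, so that 4 libraries made 4 groups of 1 library. The oxygen tension of the cultures is not given in the sources used here, and melatonin against control was the only treatment compared.

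HIF is a transcription factor made of an oxygen-labile alpha subunit and a stable beta subunit. In oxygen, prolyl hydroxylases modify the alpha subunit, the von Hippel-Lindau protein binds it, and the proteasome destroys it, so its activity is set mainly at the level of the protein. When oxygen falls, the stabilised factor binds short DNA elements and raises genes for blood vessel growth, mitochondrial turnover, collagen maturation and glycolysis. Cartilage has no blood vessels and its cells are known for living at low oxygen, and the cores of tumours and of cell aggregates are common sites of HIF activity.

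Levels are given as FPKM, which are counts scaled to the length of the exons and to the total of the library, and were used wherever genes are compared with each other. Changes are log2 ratios of FPKM after adding 1 to each value. Genes that reached 1 FPKM in either of the libraries compared were read on this scale and are called tested, and a gene was said to rise or fall at an absolute value of 0.58 or more. With 1 library per group there was no test, and a gene that rose or fell passed a size threshold only. Intervals are exact (Clopper-Pearson) 95% intervals on the log2 ratio of CPM, which are counts scaled to the library total alone, and on the linear scale this ratio equals the FPKM ratio without the added 1. For a difference between the lines the interval is a normal approximation from the counts. The intervals measure counting error alone, not the spread between cultures. Folds stated in the text are CPM ratios.

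The libraries held between 15889564 and 19218343 counts, and a count of 3 stood for 0.156 to 0.189 CPM. Mitochondrially encoded genes took 6.78% and 4.35% of the counts in JJ012 control and melatonin, and 1.63% and 2.46% in 143B. The cartilage matrix genes COL2A1 and ACAN were at or near 0 in JJ012, where COL2A1 had 0 counts and ACAN had 4 and 3 counts. COL11A2, another of the cartilage markers, had 1.67 FPKM in JJ012 control and 0.61 with melatonin, and 0.52 and 0.55 FPKM in 143B. SOX9, the cartilage lineage factor, had 15.06 FPKM in JJ012 control and 6.16 with melatonin, and it had 15.48 and 12.09 FPKM in 143B. In 143B, the osteoblast factor SP7 had 0 and 1 counts and the bone matrix gene IBSP had 0 in both libraries, while RUNX2 had 4.28 and 2.75 FPKM. The summed level of 7 cartilage markers went from 17.75 to 7.13 FPKM with melatonin in JJ012 and from 17.26 to 13.82 in 143B, and that of 7 osteoblast markers from 94.74 to 68.2 and from 6.97 to 5.07. SOX9 made up most of the cartilage sum in every library. Most of the osteoblast sum in JJ012 was SPP1 (79.39 and 64.50 FPKM), and COL1A1, which encodes a chain of type I collagen, fell there from 10.92 to 0.77 FPKM (-2.75). The 4 leukocyte markers summed to 13.68 and 5.98 FPKM in JJ012, where the T cell gene CD3E had 497 and 141 counts against 0 in both 143B libraries. The 4 endothelial markers summed to at most 2.61 FPKM in any library, and the 4 epithelial markers to 19.39 and 13.53 FPKM in JJ012 control and melatonin, beside 46.86 and 32.38 in 143B. The part of these shifts in the values that follow was not tested.

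In JJ012, melatonin went with more RNA for the HIF alpha subunits and with less for most of the tested HIF targets. Of the 29 members tested, 5 rose (HIF1A, EPAS1, HIF1AN, KDM3A and BHLHE40), 14 fell (VEGFA, ADM, ANGPTL4, BNIP3, FAM162A, P4HA1, P4HA2, PLOD1, PLOD2, LOX, LOXL2, ANKRD37, ERO1A and TMEM45A) and 10 did neither. These were 17.2% and 48.3% of the members tested, where 17.8% of all tested protein-coding genes rose and 16.1% fell, and where 19.6% of all tested genes rose and 18.6% fell. The median change was -0.33 over the members, -0.88 over the 22 targets tested, and 0.02 over all tested protein-coding genes. When FPKM were rescaled to TPM, so that the values of every library summed to the same total, the median tested gene in JJ012 moved from 0.01 to 0.27, and the median was -0.06 over the members and -0.62 over the targets. With TPM, 8 members rose and 12 fell, since ARNT (0.86), VHL (0.67) and EGLN2 (0.61) passed the threshold and VEGFA (-0.47) and ANKRD37 (-0.47) no longer did. In bulk RNA, fewer cells of a type and less RNA per cell cannot be told apart. The adrenomedullin gene ADM passed the filter on low values only through the control library and EGLN2 only through the melatonin library. EGLN3, NDUFA4L2 and AK4 stayed under 1 FPKM in both JJ012 libraries and were not tested there.

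In 143B few members moved. Of the 31 tested, STC1 rose, FAM162A, TMEM45A and WSB1 fell, and 27 did neither. That is 3.23% and 9.68% of the members tested, beside 3.48% of tested protein-coding genes that rose and 2.60% that fell, and 6.09% and 6.65% of all tested genes. The median was -0.15 over the members against 0.04 over all tested protein-coding genes. FAM162A and TMEM45A fell in both lines and 0 members rose in both, which were 6.90% and 0.00% of the 29 members tested in both, beside 0.836% and 0.510% of protein-coding genes tested in both and 1.34% and 1.16% of all such genes. Close to the threshold, HIF1AN at 0.60 and ANKRD37 at -0.61 lay just inside and ARNT at 0.55 just outside it in JJ012, and STC1 at 0.63 and FAM162A at -0.63 lay inside and P4HA1 at -0.49 outside it in 143B.

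**Figure D1:**
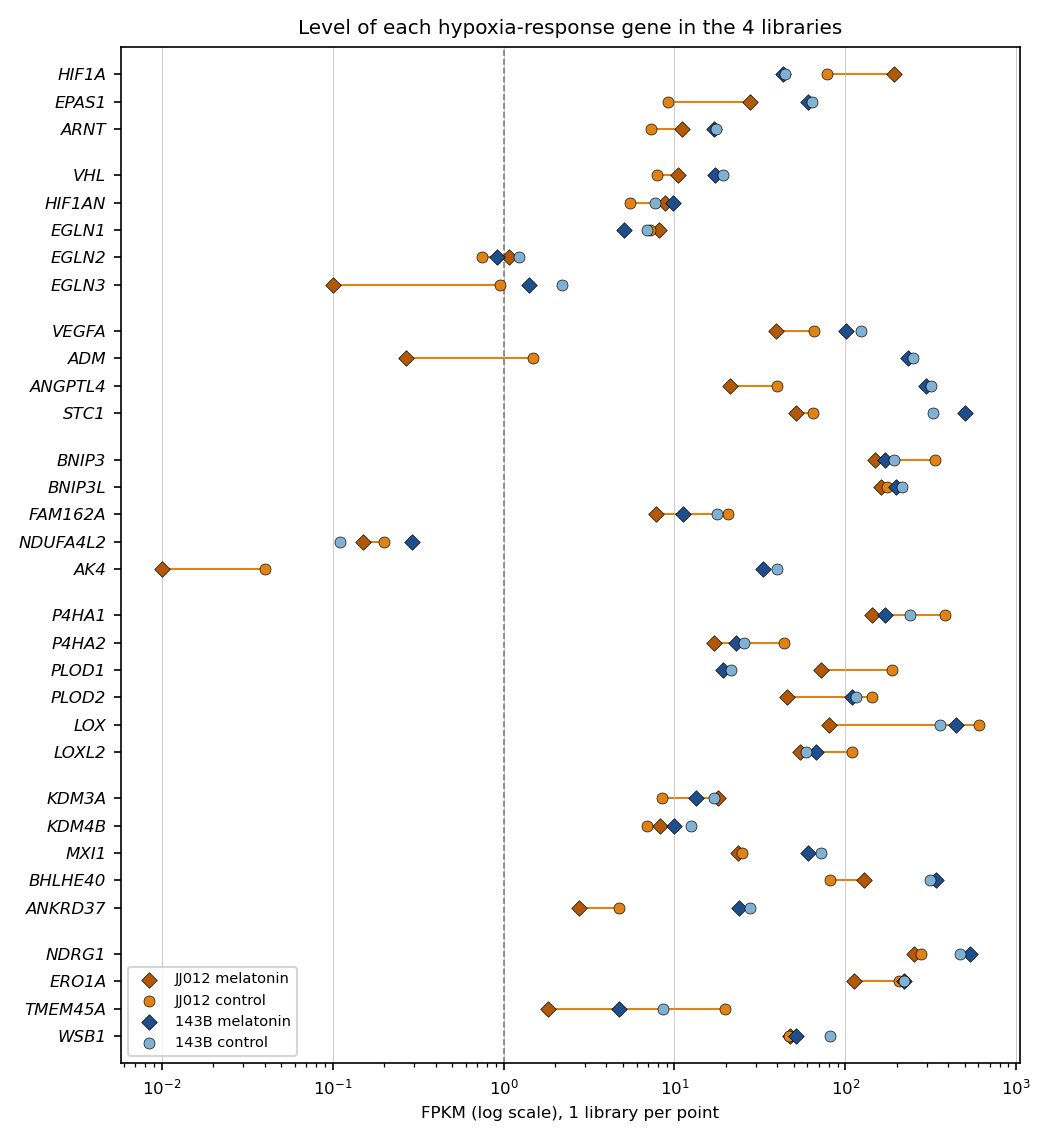
Level of the 32 hypoxia-response genes in FPKM on a log axis, 1 point per library, with JJ012 control, JJ012 melatonin, 143B control and 143B melatonin marked apart and the 1 FPKM filter dashed. For LOX the JJ012 melatonin library (80.21 FPKM) sits far left of the other 3 libraries, and for ADM both JJ012 libraries (1.48 and 0.27) sit far left of both 143B libraries.

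The HIF subunits differed between the lines both in their starting levels and in their change. HIF1A encodes the broadly expressed oxygen-labile subunit, and its gene lies at chr14:61695513-61748259 on the plus strand of hg38. HIF1A had 77.77 FPKM in JJ012 control and 192.42 with melatonin, and 44.49 and 43.31 FPKM in 143B control and melatonin. The JJ012 melatonin library was the highest of the 4, and the 143B libraries lay close together. In JJ012, HIF1A rose by 1.30 on the log2 scale, a 2.47-fold higher CPM (log2 CPM ratio 1.31, interval 1.27 to 1.35), and 1.89% of tested protein-coding genes rose by as much or more. In 143B its log2 fold change was -0.04. An antisense gene, HIF1A-AS3, overlaps HIF1A and had 11 and 128 counts in JJ012 and 1946 and 1693 in 143B, beside 7699, 16001, 3641 and 3829 counts of HIF1A in the order of JJ012 control, JJ012 melatonin, 143B control and 143B melatonin. A gene without a symbol overlaps HIF1A on the same strand and had 4 and 41 counts in JJ012 and 423 and 473 in 143B. The strand setting of the counting is not given in the sources used here, so reads of these genes may not have been told apart.

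EPAS1 encodes HIF-2alpha, the subunit best known from endothelial and kidney cells. It had 9.11 FPKM in JJ012 control and 27.84 with melatonin, and 64.01 and 60.74 FPKM in 143B. The JJ012 values stayed below both 143B values. The rise in JJ012 was 1.51 (log2 CPM ratio 1.61, interval 1.52 to 1.71), the largest among the members, and 0.936% of tested protein-coding genes rose by as much or more, while the change in 143B was -0.07. The balance between the alpha subunits, as counted, differed between the lines. HIF1A had 8.54 and 6.91 times the FPKM of EPAS1 in JJ012 control and melatonin, and 0.695 and 0.713 times in 143B. HIF1A-AS3 had most of its counts in 143B, so the ratios there depend on how reads shared with HIF1A were counted, which was not tested. ARNT, the shared beta subunit, had 7.24 and 11.08 FPKM in JJ012 and 17.59 and 17.12 in 143B. Its changes of 0.55 and -0.04 stayed under the threshold. The JJ012 value was past the threshold with TPM (0.86) or a pseudocount of 0.1 (0.61), and further under it less the trend over exonic length (0.38). Its JJ012 counting interval (0.49 to 0.74) lay above 0.

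Among the oxygen sensors, HIF1AN, 1 of 4 tested, passed the threshold in JJ012 and 0 of 5 did in 143B, while other scalings moved which sensors passed it. Of all tested protein-coding genes, 17.8% rose and 16.1% fell in JJ012, and 3.48% rose and 2.60% fell in 143B. The 0 of 5 in 143B was thus near the share of all such genes, and the counts are not read as a difference between the lines. HIF1AN encodes the asparaginyl hydroxylase that blocks the transactivation domain of HIF alpha in oxygen, and it had 5.52 and 8.85 FPKM in JJ012 and 7.66 and 9.83 in 143B. It rose by 0.60 in JJ012 (log2 CPM ratio 0.68, interval 0.58 to 0.78) and its change in 143B was 0.32, so the melatonin library was the higher of the pair in both lines. Less the trend over exonic length its JJ012 value was 0.29, under the threshold, and the oppositely transcribed gene NDUFB8, which overlaps it, had 419 and 180 counts in JJ012. VHL, which encodes the substrate receptor of the ligase that marks HIF alpha for destruction, had 7.89 and 10.48 FPKM in JJ012 and 19.18 and 17.24 in 143B (changes of 0.37 and -0.15). With TPM the JJ012 value of VHL was 0.67, past the threshold, and less the trend over exonic length it was 0.35, under it.

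The EGLN genes encode the prolyl hydroxylases, and EGLN1 and EGLN3 are themselves HIF targets. EGLN1 had 7.18 and 8.13 FPKM in JJ012 and 6.90 and 5.08 in 143B, with changes of 0.16 and -0.38 that stayed under the threshold. EGLN2 was near the filter in every library, at 0.75, 1.07, 1.23 and 0.91 FPKM in JJ012 control, JJ012 melatonin, 143B control and 143B melatonin. Its gene lies within the readthrough gene RAB4B-EGLN2, with which it shares sequence, and its level is uncertain. Its changes were 0.24 in JJ012, or 0.61 with TPM, and -0.22 in 143B. EGLN3 had 0.95 and 0.10 FPKM in JJ012 and 2.21 and 1.40 in 143B. Its 134 counts in JJ012 control and 12 with melatonin gave a log2 CPM ratio of -3.23 with an interval of -4.22 to -2.38, and its 258 and 177 counts in 143B gave -0.65 with an interval of -0.94 to -0.37. EGLN3 was under the filter in JJ012 and its change of -0.42 in 143B, on the scale with 1 FPKM added, was under the threshold, which it passed with TPM (-0.64) or a pseudocount of 0.1 (-0.62). EGLN3 was the oxygen sensor with the largest difference on the CPM scale in each line. SPTSSA, which overlaps its annotated span on the same strand, had 1322 and 885 counts in JJ012 and 336 and 355 in 143B. The part of this overlap in the EGLN3 counts was not tested.

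Of the 4 angiogenic and secreted targets, 3 fell in JJ012, beside 16.1% of all tested protein-coding genes. In 143B, STC1 alone passed the threshold, as a rise, beside 3.48% of such genes with a rise. The 143B count thus rests on 1 gene and is not read as a trait of the group. VEGFA, the main growth factor for blood vessels, had 65.91 and 39.32 FPKM in JJ012 and 123.64 and 101.21 in 143B. It fell by 0.73 in JJ012 (log2 CPM ratio -0.75, interval -0.78 to -0.71), and its change in 143B was -0.29. ANGPTL4, which encodes a secreted inhibitor of lipoprotein lipase, had 39.86 and 21.00 FPKM in JJ012 and 316.12 and 294.54 in 143B. It fell by 0.89 in JJ012 (log2 CPM ratio -0.92, interval -1.04 to -0.81) and its change in 143B was -0.10. In each line the control library was the higher of the pair for both genes.

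ADM encodes adrenomedullin, a vasodilator peptide. It had 1.48 FPKM in JJ012 control and 0.27 with melatonin, from 66 and 10 counts, and 249.92 and 233.91 FPKM in 143B, so the difference between the lines was far larger than either change with melatonin. The fall in JJ012 was 0.97 on the log2 scale and the log2 CPM ratio was -2.47 (interval -3.60 to -1.50). STC1 encodes the glycoprotein hormone stanniocalcin 1 and was the member that rose in 143B, from 324.14 to 502.03 FPKM (0.63, interval 0.61 to 0.66 on the CPM scale), a value that was 0.57, under the threshold, with TPM. In JJ012 it had 64.75 and 51.17 FPKM, a change of -0.33.

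BNIP3 and BNIP3L are paralogues that encode receptors for mitophagy, the removal of mitochondria by autophagy. BNIP3 had 332.14 and 149.40 FPKM in JJ012 and 193.46 and 171.14 in 143B, and fell by 1.15 in JJ012 (log2 CPM interval -1.19 to -1.12), with a change of -0.18 in 143B. BNIP3L had 174.35 and 162.53 FPKM in JJ012 and 212.95 and 196.67 in 143B, with changes of -0.10 and -0.11, and the difference between its changes in the lines was 0.01 (interval -0.04 to 0.06). In JJ012, then, BNIP3 passed the threshold and BNIP3L did not. FAM162A, which encodes a mitochondrial protein linked to hypoxic cell death, had 20.53 and 7.75 FPKM in JJ012 and 17.85 and 11.15 in 143B. It fell in both lines, by 1.30 (log2 CPM ratio -1.41, interval -1.49 to -1.32) and by 0.63 (log2 CPM ratio -0.68, interval -0.76 to -0.60). The larger fall was in JJ012, with a difference between the lines of -0.73 on the log2 CPM scale (interval -0.84 to -0.61).

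The other 2 genes of the mitochondrial group were low in JJ012. NDUFA4L2, a subunit-like protein of the respiratory chain, had between 5 and 14 counts in every library and 0.11 to 0.29 FPKM, too few to read a change. AK4, a mitochondrial adenylate kinase, had 6 and 1 counts in JJ012 and 39.71 and 32.87 FPKM in 143B, where its change was -0.27. Between the untreated libraries, AK4 had 6 counts in JJ012 and 4781 in 143B, a log2 CPM ratio of -9.91 with an interval of -11.36 to -8.79. Pseudogenes of AK4 elsewhere in the genome also had counts. In control and melatonin, AK4P3 had 58 and 38 in JJ012 and 32 and 30 in 143B, AK4P4 had 18 and 0 in JJ012, and AK4P1 had 101 and 75 in 143B. The part of reads shared with these copies in the AK4 counts was not tested.

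All 6 collagen-modifying targets fell in JJ012 and 0 of 6 rose or fell in 143B, with medians of -1.39 and -0.11. Among all tested protein-coding genes, 16.1% fell in JJ012, and 3.48% rose and 2.60% fell in 143B. The 0 of 6 in 143B was thus near the share of all such genes. P4HA1 and P4HA2 encode catalytic subunits of collagen prolyl 4-hydroxylase, which stabilises the collagen triple helix. P4HA1 had 382.67 and 143.15 FPKM in JJ012 and 237.76 and 169.46 in 143B (changes of -1.41, CPM interval -1.46 to -1.38, and -0.49). P4HA2 had 43.67 and 17.11 FPKM in JJ012 and 25.48 and 22.92 in 143B (changes of -1.30, CPM interval -1.41 to -1.29, and -0.15). In JJ012 these were falls of 2.67-fold and 2.55-fold, and in both lines the melatonin library was the lower for both genes.

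PLOD1 and PLOD2 encode lysyl hydroxylases, which prepare collagen for cross-linking. PLOD1 had 188.14 and 72.20 FPKM in JJ012 and 21.44 and 19.32 in 143B, so it was 8.78-fold higher in untreated JJ012 than in untreated 143B and fell 2.61-fold with melatonin in JJ012 (-1.37, CPM interval -1.42 to -1.34). PLOD2 had 143.29 and 45.78 FPKM in JJ012 and 115.08 and 108.57 in 143B, and fell by 1.63 in JJ012 (log2 CPM ratio -1.65, interval -1.69 to -1.60). Their changes in 143B were -0.14 and -0.08.

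LOX encodes lysyl oxidase, the secreted enzyme that cross-links collagen and elastin, and on the FPKM scale with 1 added it showed the largest fall among the members. LOX had 602.90 FPKM in JJ012 control and 80.21 with melatonin, from 64839 and 7246 counts, and 357.82 and 444.26 FPKM in 143B control and melatonin. The JJ012 control library was the highest of the 4 and the JJ012 melatonin library the lowest. LOX fell by 2.89 in JJ012, a 7.52-fold lower CPM (log2 CPM ratio -2.91, interval -2.95 to -2.88), and 0.078% of tested protein-coding genes fell by as much or more. Its change in 143B was 0.31, and the difference between the lines was -3.22 (interval -3.26 to -3.18). LOXL2, a related oxidase, had 108.85 and 54.32 FPKM in JJ012 and 58.94 and 67.65 in 143B, and fell by 0.99 in JJ012 (CPM interval -1.05 to -0.96) with a change of 0.20 in 143B. For LOX and LOXL2 the log2 fold changes therefore had opposite signs in the lines, but neither passed the threshold in 143B.

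**Figure D2:**
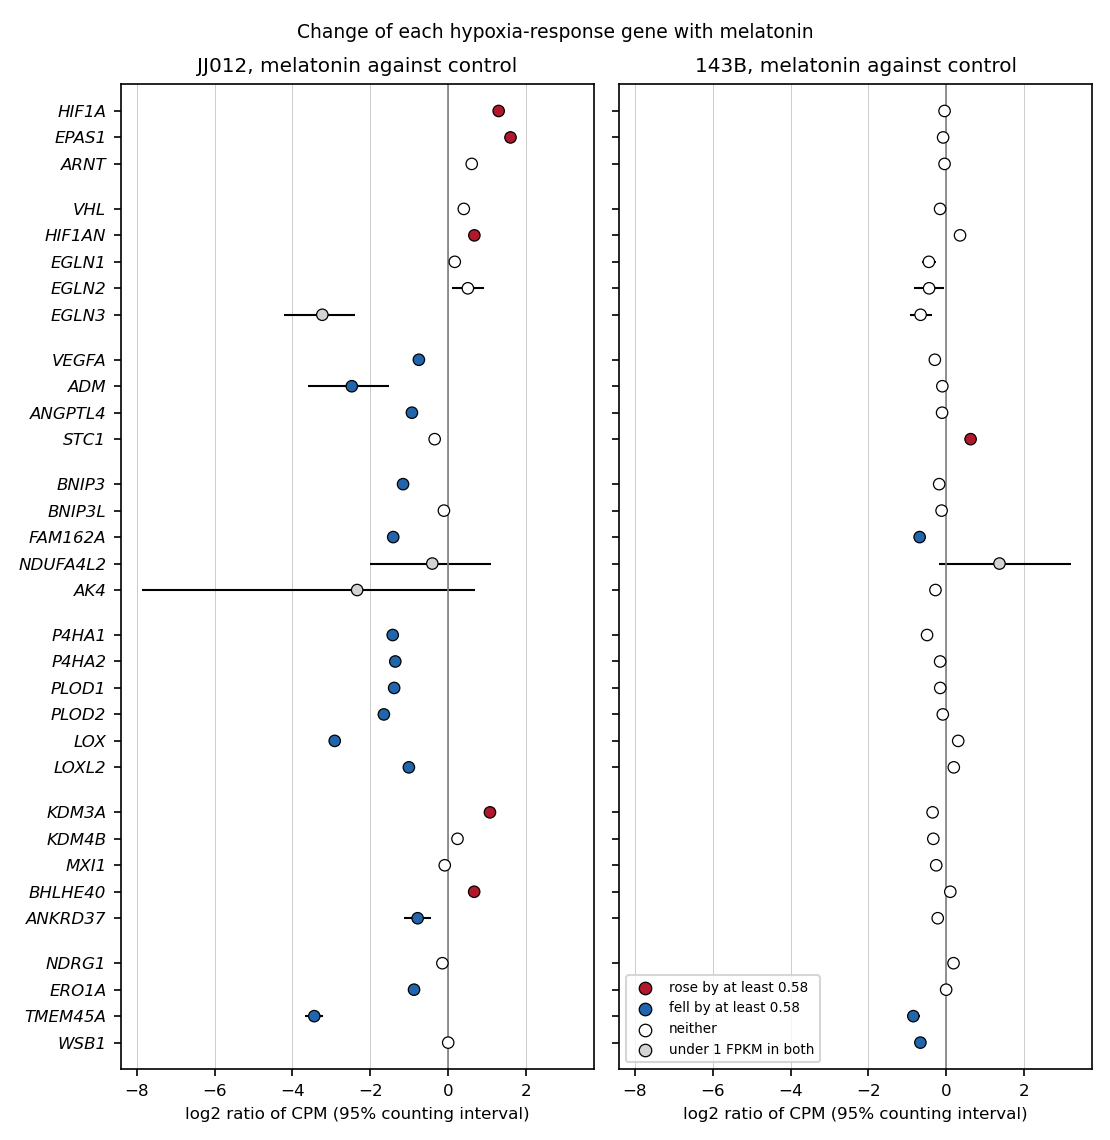
Log2 ratio of CPM, melatonin against control, for each hypoxia-response gene in JJ012 (left) and 143B (right), with bars for the 95% counting interval and points coloured by whether the gene rose, fell or did neither on the FPKM scale with 1 added, or was not tested. In JJ012 TMEM45A (-3.44), EGLN3 (-3.23, not tested) and LOX (-2.91) lie far to the left and EPAS1 (1.61) and HIF1A (1.31) to the right. In 143B most points lie near 0.

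Among the 5 genes that act on chromatin and transcription, 2 rose and 1 fell in JJ012. There, 17.8% of all tested protein-coding genes rose and 16.1% fell. KDM3A encodes a histone demethylase that acts on lysine 9 of histone H3 and had 8.50 and 18.01 FPKM in JJ012 and 16.93 and 13.32 in 143B. It rose by 1.00 in JJ012 (log2 CPM ratio 1.08, interval 1.01 to 1.16) and its change in 143B was -0.32. BHLHE40, a transcriptional repressor also known as DEC1, had 80.82 and 129.19 FPKM in JJ012 and 313.19 and 337.77 in 143B, and rose by 0.67 in JJ012 (interval 0.63 to 0.73) with 0.11 in 143B. These genes are HIF targets that rose in the same pair of libraries in which 14 other targets fell.

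ANKRD37, which encodes an ankyrin repeat protein, had 4.71 and 2.75 FPKM in JJ012 and 27.65 and 23.84 in 143B. Its fall of 0.61 in JJ012 rested on 204 and 100 counts (log2 CPM ratio -0.78, interval -1.14 to -0.42), and was under the threshold after rescaling to TPM or removing the trend over length. The histone demethylase gene KDM4B had 6.89 and 8.18 FPKM in JJ012 and 12.43 and 9.90 in 143B, and MXI1, an antagonist of MYC, had 24.81 and 23.47 FPKM in JJ012 and 72.31 and 60.68 in 143B. Neither passed the threshold in either line, with changes of 0.22 and -0.30 for KDM4B and of -0.08 and -0.25 for MXI1.

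Of the other targets, TMEM45A fell in both lines. It encodes a transmembrane protein and had 19.65 FPKM in JJ012 control and 1.82 with melatonin, from 2268 and 176 counts, and 8.52 and 4.75 FPKM in 143B, from 813 and 490 counts. It fell by 2.87 in JJ012 (a 10.8-fold lower CPM, log2 CPM ratio -3.44, interval -3.67 to -3.21) and by 0.73 in 143B (1.79-fold lower, log2 CPM ratio -0.84, interval -1.01 to -0.68). The control library was the higher in each line, and the fall was larger in JJ012 by -2.59 on the log2 CPM scale (interval -2.87 to -2.32).

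ERO1A encodes the oxidase that drives disulfide bond formation in the endoplasmic reticulum and had 205.85 and 112.63 FPKM in JJ012 and 220.18 and 220.53 in 143B. It fell by 0.86 in JJ012 (log2 CPM ratio -0.87, interval -0.90 to -0.84), with 0.00 in 143B. WSB1, a subunit of a ubiquitin ligase, had 46.96 and 47.24 FPKM in JJ012 and 81.24 and 51.42 in 143B. It fell by 0.65 in 143B (log2 CPM ratio -0.66, interval -0.70 to -0.62) with 0.01 in JJ012, and the difference between the lines was 0.67 (interval 0.61 to 0.73). NDRG1, a stress-response gene that is among the best known hypoxia markers, had 277.96 and 252.16 FPKM in JJ012 and 467.05 and 533.53 in 143B, and its changes of -0.14 and 0.19 stayed under the threshold.

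**Figure D3:**
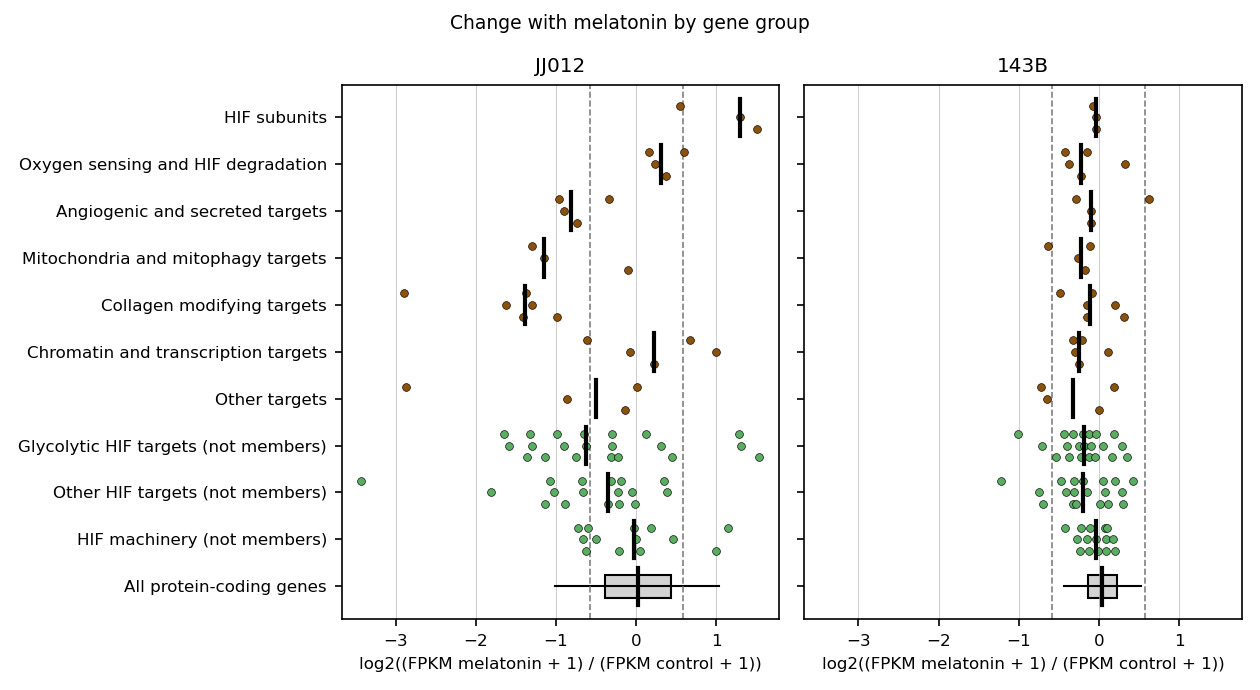
Log2 fold change on the FPKM scale with 1 added, melatonin against control, of every tested member by group and of the HIF pathway lists that hold no member, in JJ012 and 143B, with black ticks at the medians, dashed lines at the threshold, and all tested protein-coding genes as a box between the 25th and 75th percentiles with a line from the 5th to the 95th. The 6 collagen-modifying genes in JJ012 lie between -2.89 and -0.99 and in 143B between -0.49 and 0.31.

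The changes in the lines were also compared directly for each member, as the log2 CPM ratio in JJ012 less that in 143B. The counting interval of this difference lay below 0 for 17 members and above 0 for 12, and included 0 for BNIP3L, NDUFA4L2 and AK4. The members on the higher side included EPAS1 (1.69, interval 1.58 to 1.79), KDM3A (1.43, interval 1.33 to 1.53) and HIF1A (1.35, interval 1.27 to 1.42). The lowest differences were those of LOX and TMEM45A, given above, and of EGLN3 (-2.57, interval -3.47 to -1.68). In the order of levels, 19 of 32 members had their lowest FPKM in the JJ012 melatonin library, 20 had their highest in a 143B library, 9 in JJ012 control and 3 in JJ012 melatonin. No share over all genes was computed for the counts of members in this paragraph, so they are not read as a trait of the members. With 1 library per group these comparisons cannot be set against the spread between cultures.

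Untreated JJ012 and 143B differed for most members. Of 31 tested, 8 were higher in JJ012 (25.8%) and 16 lower (51.6%), beside 39.6% and 25.1% of tested protein-coding genes and 41.3% and 27.4% of all tested genes. AK4, EGLN3 and EGLN2 passed the filter only through the 143B library, and the first 2 of them are among the 16. The median difference was -0.72 over the members and 0.26 over tested protein-coding genes. Centred on the median tested gene the counts were 3 higher and 18 lower, and with TPM 2 and 19. All 4 secreted targets and all 5 chromatin and transcription targets were lower in JJ012, led by ADM (-6.66), ANGPTL4 (-2.96), ANKRD37 (-2.33), STC1 (-2.31) and BHLHE40 (-1.94). By contrast, 5 of 6 collagen-modifying genes were higher in JJ012, led by PLOD1 (3.08) and LOXL2 (0.87), of which these 2 alone passed the threshold after centring. HIF1A was higher in JJ012 by 0.79 and EPAS1 lower, at -2.68, with HIF1A at 0.51 after centring. The HIF1A difference also depends on how reads of its overlapping genes, higher in 143B, were counted. Of the oxygen-sensing group, VHL (-1.18) and EGLN3 (-0.72) were lower in JJ012.

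Other genes of the HIF pathway were read from lists that share no gene with the members. Their counts stand beside all tested protein-coding genes, of which 17.8% rose and 16.1% fell in JJ012, and 3.48% and 2.60% in 143B. Of 21 glycolytic HIF targets, all tested in both lines, 3 rose and 11 fell in JJ012 (median -0.62) and 0 rose and 2 fell in 143B (median -0.19). The largest changes in JJ012 were rises of the glucose transporter gene SLC2A3 (1.54) and the hexokinase gene HK2 (1.31) and falls of GAPDH (-1.64) and ALDOC (-1.58), which encode glycolytic enzymes. In 143B, PDK1 (-1.02), which encodes a kinase that inhibits pyruvate dehydrogenase, and ALDOC (-0.72) fell.

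Of 19 further HIF targets, 17 were tested in JJ012, where 0 rose and 8 fell (median -0.35), and 19 in 143B, where 0 rose and 3 fell (median -0.20). The largest falls in JJ012 were those of the carbonic anhydrase gene CA9 (-3.43) and of IGFBP3 (-1.81), which encodes a binding protein of insulin-like growth factors. In 143B, CA9 (-1.22) and the haem oxygenase gene HMOX1 (-0.74) fell. A list of 16 genes held the further HIF subunit genes HIF3A and ARNT2 beside genes for HIF cofactors and regulators. Of these 16, 13 were tested in JJ012, where the coactivator genes EP300 (1.15) and CREBBP (0.99) rose and 4 fell, led by the chaperone gene HSP90AA1 (-0.73) and the ligase subunit gene RBX1 (-0.66). In 143B, 0 of 15 rose or fell. The share of targets that fell in JJ012 was 52.4% in the glycolytic list, beside 63.6% of the 22 tested targets among the members.

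Broader annotated sets were added after the values were seen. Of 104 tested genes annotated to the Gene Ontology term response to hypoxia, 16 rose (15.4%) and 32 fell (30.8%) in JJ012, where 19.6% and 18.6% of all tested genes did. Of 74 under cellular response to hypoxia, 16 rose and 16 fell (21.6% each), and of 114 in the KEGG HIF-1 signaling pathway, 27 rose (23.7%) and 23 fell (20.2%), shares near those of all tested genes. In 143B the counts were 8 and 2 of 96, 2 and 9 of 75, and 2 and 6 of 107, beside 6.09% and 6.65% of all tested genes. These annotations hold many genes that are not HIF targets, and 12, 13 and 7 of the 32 members carry them.

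The promoters of the members were searched for the core of the hypoxia response element, the site that HIF binds, which reads ACGTG or, less often, GCGTG. RefSeq promoters of GRCh38.p14, from 250 bases before to 50 after the most upstream start in that promoter set, were at hand for 25 of 32 members, and VHL, VEGFA, STC1, BNIP3L, NDUFA4L2, LOXL2 and NDRG1 had no entry. The start used was not always the start of the gene as counted. For EPAS1 it was 46297407, while the counted gene began at 46293667, and for P4HA2 and EGLN3 it also lay inside the counted gene. Both strands were searched, and the palindrome CACGTG counts on each strand. Shown here are the promoters of LOX and TMEM45A, the genes with the largest falls in JJ012, of BNIP3, a target that fell with many cores, and of EPAS1, the gene with the largest rise, each 5′ to 3′ on the strand of the gene and with the cores in capitals (CACGT and CACGC are cores on the opposite strand).
LOX: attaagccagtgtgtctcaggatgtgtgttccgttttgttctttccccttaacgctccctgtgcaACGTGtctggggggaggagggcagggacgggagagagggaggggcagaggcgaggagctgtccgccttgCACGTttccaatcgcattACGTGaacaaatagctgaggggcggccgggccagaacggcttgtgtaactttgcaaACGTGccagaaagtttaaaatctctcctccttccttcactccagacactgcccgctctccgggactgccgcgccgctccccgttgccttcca
TMEM45A: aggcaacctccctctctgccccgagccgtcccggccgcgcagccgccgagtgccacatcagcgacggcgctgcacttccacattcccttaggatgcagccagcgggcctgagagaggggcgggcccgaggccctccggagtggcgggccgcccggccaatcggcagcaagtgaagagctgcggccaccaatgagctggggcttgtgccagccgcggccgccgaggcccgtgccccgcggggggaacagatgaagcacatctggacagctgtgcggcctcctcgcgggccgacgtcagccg
BNIP3: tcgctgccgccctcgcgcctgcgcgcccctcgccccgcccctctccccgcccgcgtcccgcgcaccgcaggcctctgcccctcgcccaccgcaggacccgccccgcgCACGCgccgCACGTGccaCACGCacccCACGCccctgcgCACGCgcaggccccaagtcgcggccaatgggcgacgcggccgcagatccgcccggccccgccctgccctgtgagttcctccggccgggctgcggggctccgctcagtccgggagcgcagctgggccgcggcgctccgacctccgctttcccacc
EPAS1: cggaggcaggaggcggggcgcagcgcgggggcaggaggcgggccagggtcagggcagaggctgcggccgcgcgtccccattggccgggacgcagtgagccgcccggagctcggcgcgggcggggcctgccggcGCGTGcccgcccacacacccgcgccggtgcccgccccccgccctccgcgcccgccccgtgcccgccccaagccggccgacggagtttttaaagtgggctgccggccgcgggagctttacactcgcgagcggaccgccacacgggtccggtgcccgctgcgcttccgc

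These windows lie at chr5:122078210-122078509 on the minus strand for LOX, chr3:100492369-100492668 on the plus strand for TMEM45A, chr10:131981874-131982173 on the minus strand for BNIP3 and chr2:46297157-46297456 on the plus strand for EPAS1. LOX held 4 ACGTG cores, at -185, -116, -98 and -42 from its start. BNIP3 held 2 ACGTG cores that form 1 CACGTG palindrome at -134 and -133, and 4 GCGTG cores between -143 and -104. EPAS1 held 1 GCGTG core at -117 and 0 ACGTG cores. TMEM45A, which fell in both lines, held 0 cores of either kind in this window, which says nothing of sequence outside it.

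ACGTG was found in 14 of the 25 promoters (56.0%), beside 23.7% of the promoters of 15843 protein-coding genes, and GCGTG in 11 (44.0%) beside 44.2%. Either core stood in 19 promoters (76.0%) beside 56.0% of those of protein-coding genes. Of the 12 genes that fell in JJ012 and had a promoter, 8 held ACGTG, 6 held GCGTG and 10 held either. Of the 5 that rose, BHLHE40 alone held ACGTG, 3 held GCGTG and 4 held either, and of the 6 that were tested and did neither, 4, 1 and 4 did. Cores were thus found in promoters of genes of every direction. A core is a match of letters and was not measured as a binding site here, and the members include known HIF targets, which were chosen for such regulation.

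**Figure D4:**
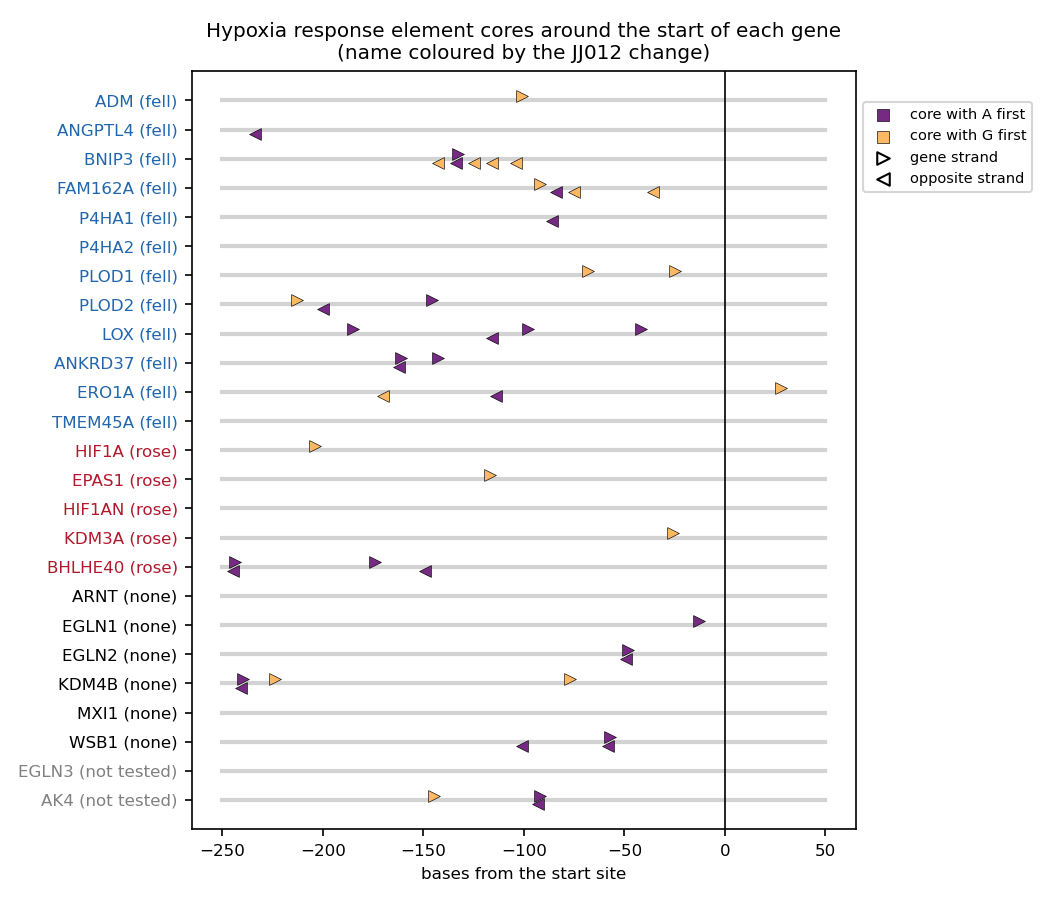
Positions of the ACGTG (core with A first) and GCGTG (core with G first) cores in bases from the start of each member with a RefSeq promoter, with arrowheads for the strand and gene names coloured by the change in JJ012. The cores of BNIP3 cluster between -143 and -104, and those of LOX spread from -185 to -42.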

How the data were processed

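RNA was sequenced from poly(A)-selected libraries of 4 suspension cultures, 1 per group. The deposited table gives counts per gene as whole numbers, not normalized, and FPKM, which the authors derived from these counts by exonic length and library total. FPKM recomputed from the deposited counts agreed within 0.01 for 100.0% of values. The submitters' processing notes name cutadapt 1.9.1, HISAT2 2.2.1, HTSeq 0.6.1, DESeq2 and hg38; the strand setting and annotation release are not given in the sources used here. The table's columns were matched to the samples by cell line, and the suffix T was read as melatonin, which the labels do not spell out. Gene types were taken from GENCODE release 29.

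Changes are log2 ratios of FPKM after adding a pseudocount of 1, for genes reaching 1 FPKM in either library compared, against a threshold of 0.58. It understates the change of low genes. Exact 95% intervals on CPM ratios came from the counts and cover counting error only. The 95% interval of the difference between lines was a normal approximation computed from the counts, not from the exact intervals. Groups of 1 library allow no test across cultures, and no p-value was computed. The calculations were tested on simulated data and run with Python 3.11.15, numpy 2.4.6, scipy 1.17.1 and pandas 2.3.3, and figures were drawn with matplotlib 3.10.9. Promoters were RefSeq sequences of GRCh38.p14.

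All members are reported, with values per library and, for subunits, sensors and changed members, intervals; of the other lists, up to 2 genes in each direction, ranked by the size of their change in each line, are named. The members and lists were chosen with earlier results of these data known. The broader annotated sets and the alternative without overlapping members were chosen after seeing the data, and 8 other alternatives were planned. A gene of the other lists is not reported here and was left out of their counts.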

Additional observations from a re-analysis of the deposited data

How the results depend on the processing

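The median change of the 32 genes kept its sign under all 9 alternatives in each comparison, between -0.34 and -0.06 in JJ012 and between -0.21 and -0.14 in 143B. With TPM, 8 genes were higher in JJ012 in place of 5 (ARNT, VHL and EGLN2 were added), 0 were higher in 143B in place of 1 and 4 lower in place of 3 (EGLN3 was added), and 2 were higher in untreated JJ012 than in untreated 143B in place of 8. With the threshold at 1, 3 were higher and 8 lower in JJ012 in place of 5 and 14, 0 and 0 in 143B, and 2 and 10 between the untreated lines in place of 8 and 16. Removing the trend over exonic length left 0 higher in 143B and 4 higher between the untreated lines, and centring left 3 higher between the untreated lines. In 9 members an overlapping gene held at least 10% of their counts in at least 1 library. They were HIF1A, HIF1AN, EGLN3, BNIP3L, FAM162A, NDUFA4L2, P4HA2, LOXL2 and ANKRD37. Without them, 3 were higher in JJ012 and 5 between the untreated lines, since fewer genes were counted. FAM162A, P4HA2, LOXL2 and ANKRD37 thereby left the genes that fell in JJ012, and 13 changed members remained there. The cause of the other shifts was not tested. Removing the length trend also took HIF1AN (0.29) and ANKRD37 (-0.32) in JJ012 and STC1 (0.57) in 143B under the threshold. No paired analysis was possible because each group held 1 library, and for the same reason no library could be left out. Depth limited EGLN2, EGLN3, ADM, NDUFA4L2 and AK4 in JJ012, which had 134 counts or fewer in each library of that line.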
